A study of Mus musculus with 5 samples.

Results

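Chromatin accessibility (ChrAcc) at 10 genes of other blood lineages was examined in naïve CD8+ T cells, namely *Spi1*, *Cebpa*, *Cebpb*, *Gata1*, *Gata2*, *Tal1*, *Csf1r*, *Kit*, *Itgam* and *Lyz2*. Their peaks were chosen by position alone, as all DNase-seq peaks with a summit in the body of 1 of these genes or within 50 kb of either end, which took in 25 of 31116 peaks in wild-type (WT) cells and 20 of 25525 peaks in Tcf1/Lef1-deficient (dKO) cells. The 10 windows covered 1265 kb of the mm9 mouse genome. All mice carried the hCD2-Cre transgene, whose activity is mostly that of mature peripheral T cells, and a Rosa26-GFP reporter that Cre switches on. WT mice had intact *Tcf7* and *Lef1* alleles, which encode Tcf1 and Lef1, and dKO mice had both genes floxed (*Tcf7* fl/fl *Lef1* fl/fl). CD8+ T cells that were GFP+, TCRbeta+ and naïve (CD62L+, CD44 low to medium) were sorted from 3 WT and 2 dKO replicates. Per the study's methods, mice of both sexes aged 6 to 12 weeks on a C57BL/6 background were used. Since Tcf1 and Lef1 guard T cell identity, the comparison asks whether regulatory regions of non-T lineages differ in accessibility once both factors are lost in mature cells.

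DNase I cuts DNA most readily where nucleosomes are displaced, so clusters of cut fragments mark promoters and enhancers that are open in the cells studied. Commitment to the T lineage in the thymus normally shuts down the regulators of stem cells and of the myeloid and erythroid lineages. Among the genes examined, *Spi1* (PU.1), *Cebpa* and *Cebpb* encode transcription factors of myeloid cells, *Gata1*, *Gata2* and *Tal1* encode factors of erythroid cells and stem cells, *Csf1r* and *Kit* encode receptors for macrophage and stem cell growth factors, *Itgam* encodes the integrin chain CD11b, and *Lyz2* encodes lysozyme.

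The sequences around 6 peaks on which the results turn are given first. They comprise a pair of peaks found only in dKO cells upstream of *Spi1* (dKO-only), 3 peaks found only in WT cells at *Cebpb* and *Itgam* (WT-only), and, as an example of a peak present in both, the strongest *Spi1* peak. Each runs on the plus strand of mm9 and spans 201 bp centred on the summit, except for the *Itgam* promoter. Its stretch of 95 bp ends before the first annotated transcript start and leaves out the summit. Capitals mark matches, on either strand, to TGTGGT (Runx), GAGGAAG (PU.1, which contains the GGAA core of all Ets factors), CAGCTG (E-box) or CCANNAGNNGG (CTCF, looked up after the sequences had been seen).
*Spi1* −15.1 kb, dKO-only, chr2:90921044-90921244: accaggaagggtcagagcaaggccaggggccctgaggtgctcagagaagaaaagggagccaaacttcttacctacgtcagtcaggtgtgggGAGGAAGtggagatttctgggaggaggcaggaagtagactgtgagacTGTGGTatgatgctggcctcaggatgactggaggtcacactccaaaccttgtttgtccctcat
*Spi1* −13.1 kb, dKO-only, chr2:90923084-90923284: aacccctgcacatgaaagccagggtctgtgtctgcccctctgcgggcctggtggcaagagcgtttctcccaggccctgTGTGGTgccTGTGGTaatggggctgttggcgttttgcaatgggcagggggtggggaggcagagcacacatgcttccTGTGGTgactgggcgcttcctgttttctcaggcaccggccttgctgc
*Spi1* +5.49 kb, shared, chr2:90941643-90941843: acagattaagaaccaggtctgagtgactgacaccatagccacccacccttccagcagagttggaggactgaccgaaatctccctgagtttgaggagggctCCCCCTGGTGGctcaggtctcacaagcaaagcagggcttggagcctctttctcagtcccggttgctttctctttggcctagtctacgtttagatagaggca
*Cebpb* −3.59 kb, WT-only, chr2:167510726-167510926: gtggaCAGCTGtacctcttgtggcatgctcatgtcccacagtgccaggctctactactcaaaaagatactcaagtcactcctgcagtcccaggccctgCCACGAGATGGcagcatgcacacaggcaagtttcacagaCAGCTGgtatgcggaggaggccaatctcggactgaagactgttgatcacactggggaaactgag
*Itgam* promoter, WT-only, chr7:135206059-135206153: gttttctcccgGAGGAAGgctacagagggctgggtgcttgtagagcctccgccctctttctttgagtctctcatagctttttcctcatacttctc
*Itgam* +57.6 kb, WT-only, chr7:135263692-135263892: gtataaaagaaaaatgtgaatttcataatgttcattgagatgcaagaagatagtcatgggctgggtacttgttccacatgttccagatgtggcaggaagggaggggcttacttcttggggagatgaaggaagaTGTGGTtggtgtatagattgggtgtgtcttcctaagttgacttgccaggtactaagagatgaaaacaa
Signed distances here and below run from the transcription start site (TSS) of the gene to the summit, with negative values upstream.

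The values came from 2 pools, 1 per genotype, because the authors merged replicates before peak calling. The pools held 83923734 fragments for WT and 62242963 for dKO cells. Pileup is the number of fragments over a summit, fold enrichment is its ratio to the background that the same pool shows nearby, and the percentile of a peak is its rank by fold enrichment within its own list. The pooled lists hold no spread between replicates, so no test between genotypes was possible from them. The study itself counted the reads of each replicate at merged sites and called differential ones with edgeR. All intervals below are 95% intervals of counting error only. Within 1 kb of the TSS, peaks were found at 19 of 24 T cell genes in the WT list and at 18 in the dKO list. Among them were *Cd3e*, *Cd8a* and *Cd8b1* in both lists, *Cd3d* and *Gata3* in the WT list only and *Cd2* in the dKO list only. *Ets1*, *Lef1*, *Tcf7* and *Thy1* had no such peak in either list, nor had any of 12 B cell genes. Of 8 NK cell genes, *Prf1* had a promoter peak in both lists and *Gzma* in the dKO list. The windows of the targeted genes held 14 WT and 12 dKO peaks at *Tcf7* and 21 and 14 at *Lef1*, values that do not show whether the floxed exons were deleted. A change in the make-up of the sorted cells and a change within cells cannot be told apart in these pools.

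The 10 genes fell into 3 groups. *Cebpa*, *Gata2* and *Lyz2* had no peak in either list, a state shared by 24.6% of 22380 protein-coding genes with windows of the same flank. *Csf1r*, *Gata1* and *Kit* had at most 1 peak per list, and the peaks of the first pair were promoters of neighbouring genes. *Spi1*, *Cebpb*, *Tal1* and *Itgam* held the other peaks. The median over the 10 genes was 1 WT peak and 0.5 dKO peaks per window, against 3 and 2 over all protein-coding genes and 13 and 10 over the T cell genes.

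**Figure D1:**
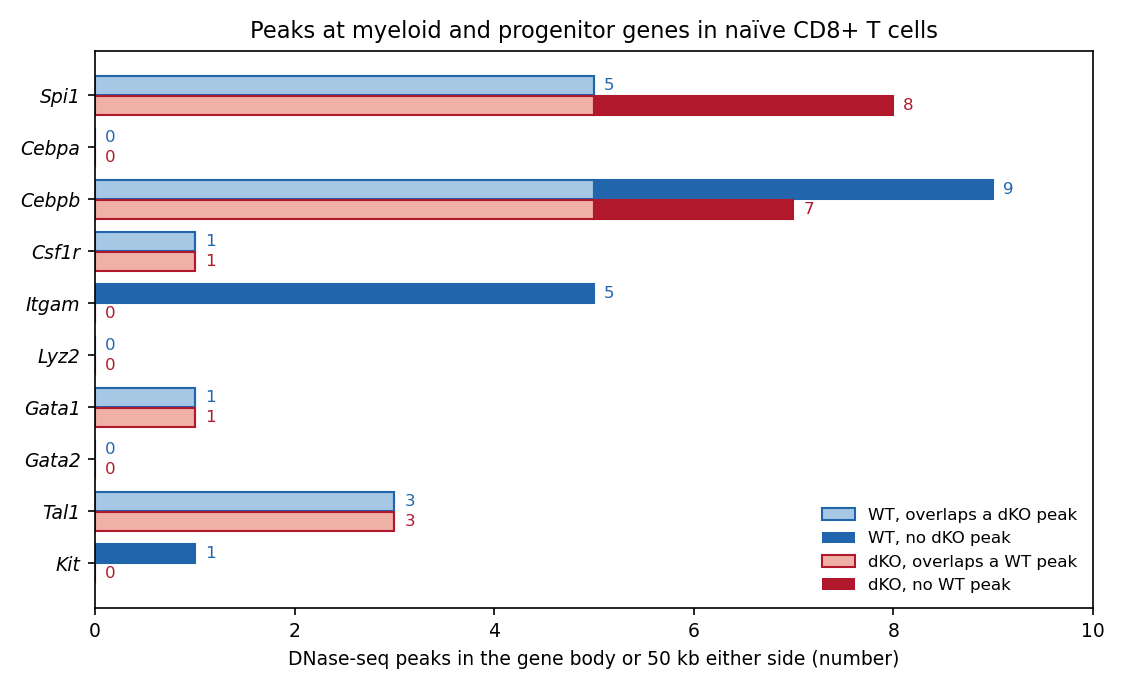
Number of DNase-seq peaks per gene in the gene body or 50 kb either side, in the WT list (blue) and the dKO list (red), with pale bars for peaks that overlap a peak of the other list and full colour for peaks that do not. *Spi1* has 5 WT and 8 dKO peaks, *Itgam* 5 and 0, and *Cebpa*, *Gata2* and *Lyz2* none.

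Peaks at their own promoters were rare. Within 1 kb of the TSS, *Itgam* and *Cebpb* had a peak in WT cells and none of the genes had one in dKO cells, against 43.1% and 39.5% of all protein-coding genes. The WT peak at *Cebpb*, 877 bp into its single exon, had a pileup of 25 and a fold enrichment of 3.27, below the minimum of 4 that the study set for a ChrAcc site. In contrast, 5 peaks of each list lay at promoters of neighbouring genes that are not specific to blood lineages, namely *Psmc3* and *Slc39a13* near *Spi1*, *Tmem189* near *Cebpb*, *Hmgxb3* near *Csf1r* and *Hdac6* near *Gata1*, and all 5 were present in both lists. Among all 25 WT and 20 dKO peaks, 22 and 18 met the study's criteria.

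Of the 25 WT peaks, 10 did not overlap a dKO peak (40%, 95% Wilson interval 23.4 to 59.3), against 30.1% of all WT peaks. Of the 20 dKO peaks, 5 did not overlap a WT peak (25%, 11.2 to 46.9), against 14.0% of all dKO peaks. Both intervals contain the share of the whole list. They treat peaks as independent, although the single-list peaks were clustered. Of the WT-only peaks, 5 were at *Itgam*, 4 at *Cebpb* and 1 at *Kit*, and of the dKO-only peaks, 3 were at *Spi1* and 2 at *Cebpb*. Peaks without a counterpart were mostly weak. The WT-only peaks had a median percentile of 10.1 (1.89 to 86.4), against 71.9 for the WT peaks with a counterpart, and the dKO-only peaks had one of 7.94 (0.983 to 16.1), against 65.4.

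The other 15 peaks formed pairs across the lists. Their pileups were compared as the ratio of dKO to WT, divided by the median ratio of all 21739 pairs (0.68), so that a value of 1 stands for no difference from the typical pair. The ratio ran from 0.735 to 1.43 over the 15 pairs, with 5 above 1 and 9 below, and every counting interval contained 1. None of the 15 differed by 2-fold or more. Of all pairs, 2.96% did, 2.11% being higher and 0.856% lower in dKO cells. The median of the 15 ratios was 0.911, and none stood apart from 1 by more than the counting error of its fragments.

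**Figure D2:**
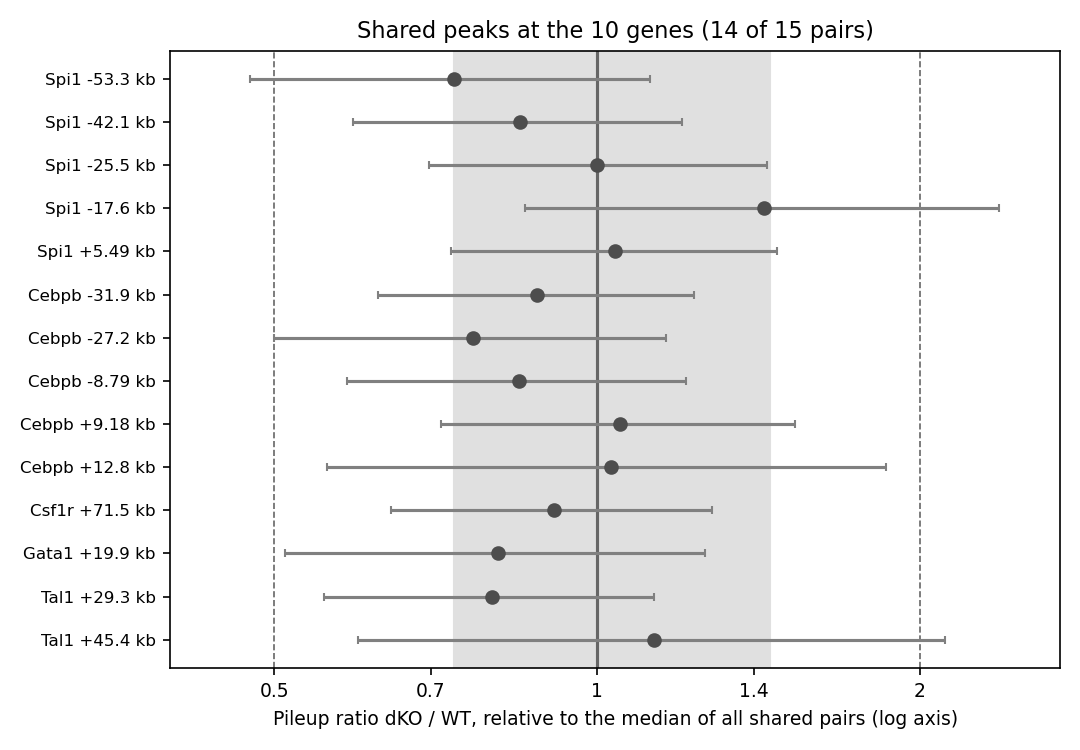
Ratio of dKO to WT pileup for 14 of the 15 peaks found in both lists, divided by the median ratio of all pairs and drawn on a log axis, with 95% counting intervals. Grey shading spans the central 80% of all 21739 pairs and dashed lines mark 2-fold, and each interval drawn includes 1.

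*Spi1*, whose product PU.1 directs myeloid and B cell fates and must be silenced for T cell commitment, was the only one of the 10 genes with more dKO than WT peaks. Its window on chromosome 2 (gene 90922547 to 90955913, named *Sfpi1* in the annotation) held 5 WT peaks, all with a dKO counterpart, and 8 dKO peaks. An excess of 3 or more dKO peaks was found at 0.59% of all protein-coding genes, and an excess of 3 or more WT peaks at 9.32%, counts that were chosen after the values at *Spi1* had been seen. The excess of 3 at *Spi1* includes a peak that fails the study's criteria, under which the gene had 5 WT and 7 dKO peaks, and the 20000 peaks of highest −log10 p left 4 and 5. One pair was intragenic, at +5.49 kb in intron 2. With pileups of 82 in WT and 58 in dKO cells, percentiles of 89.4 and 88.4 and a relative ratio of 1.04 (0.73 to 1.47), it ranked among the stronger peaks of both lists, and its sequence above holds the CTCF letters at the summit.

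The pairs upstream had ratios on both sides of 1. The *Psmc3* promoter (−42.1 kb) had pileups of 92 and 53 and the *Slc39a13* promoter (−25.5 kb) 79 and 54, for ratios of 0.847 and 1. A peak in intron 3 of *Rapsn* (−53.3 kb) had pileups of 70 and 35 and the lowest ratio of all 15 pairs, 0.735 (0.475 to 1.12). An intergenic peak at −17.6 kb had pileups of 34 and 33 and the highest ratio, 1.43 (0.857 to 2.37). Neither end of this range was separated from 1 by counting error.

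All 3 dKO-only peaks of *Spi1* lay upstream of the TSS. The peak at −15.1 kb (90921106 to 90921212) had 27 fragments, a fold enrichment of 5.01 and a percentile of 16.1. The next, at −13.1 kb (90923153 to 90923310), had 24 fragments, a fold enrichment of 4.28 and a percentile of 7.94, and lay in the first intron of a longer *Spi1* transcript that starts upstream. These peaks met the study's criteria, though not a fold enrichment of 8 or q under 1e-10, at which *Spi1* had equal numbers of WT and dKO peaks (4 and 4, or 5 and 5). They lay 2393 and 4440 bp from the nearest WT peak, the shared one at −17.6 kb.

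The pools differed in depth. Scaled by the ratio typical of shared pairs, their pileups correspond to 39.7 and 35.3 fragments in the deeper WT pool, a level higher than 30.7% and 24.7% of the WT peaks. With the dKO list cut into 10 equal parts by fold enrichment, 26.9% of the peaks in the part of the first and 44.3% in that of the second had no WT counterpart. The third dKO-only peak, at −62.9 kb, had 13 fragments and a fold enrichment of 3.31, failed the criteria, and had 5 related copies elsewhere in the genome at 80% identity or more.

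An upstream regulatory element with Runx sites is known to control *Spi1* in myeloid and B cells from a comparable distance, and whether the −15.1 kb and −13.1 kb peaks fall in it was not tested. The printed sequences hold the letters TGTGGT at both, once at −15.1 kb and 3 times at −13.1 kb, and GAGGAAG at −15.1 kb. TGTGGT occurred within 100 bp of the summit in 23.2% of all dKO peaks and GAGGAAG in 11.8%. A match of letters is a description of the sequence and no evidence of binding.

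**Figure D3:**
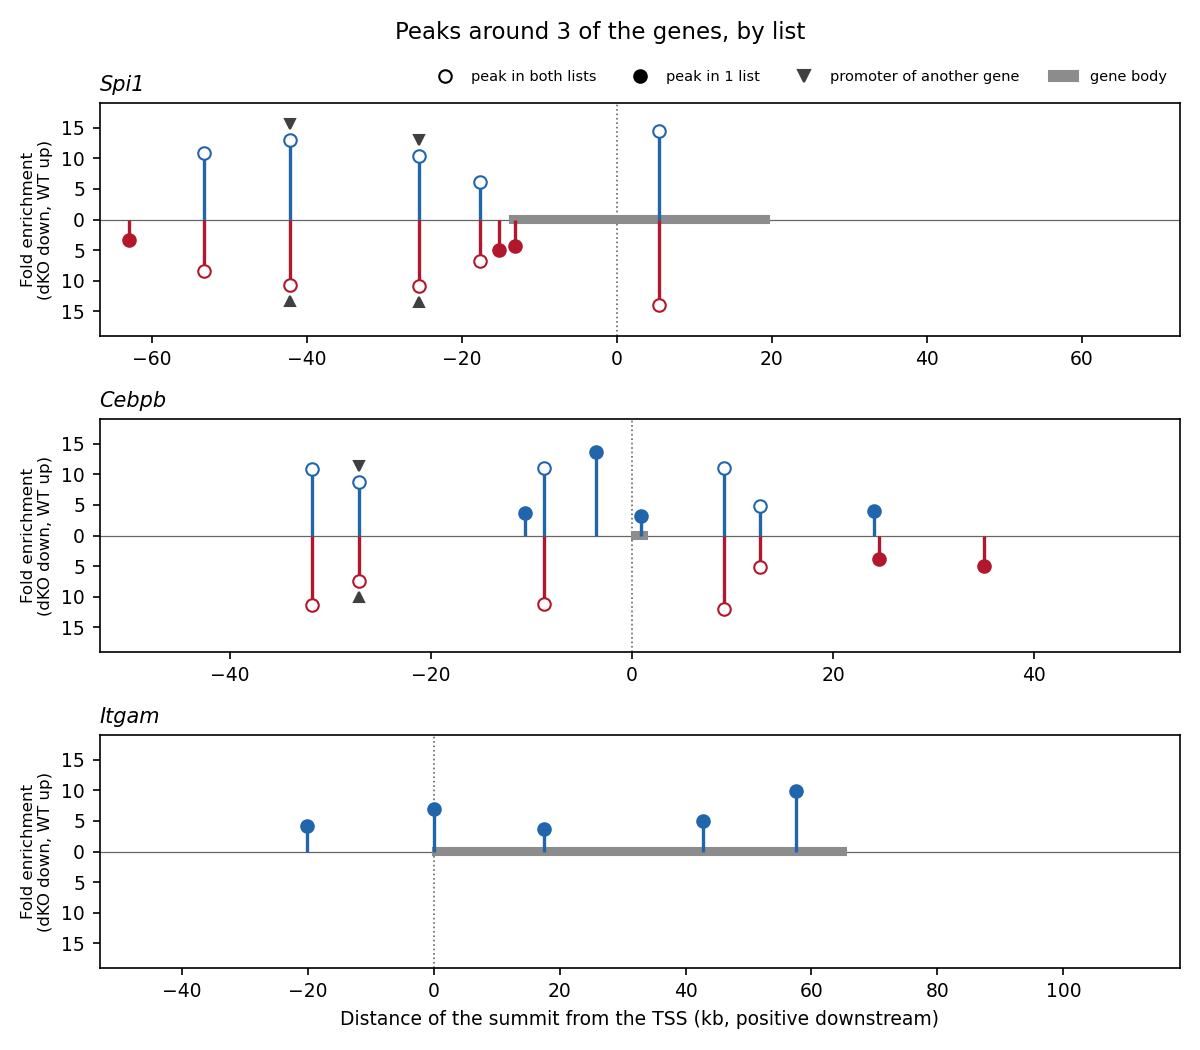
Peaks around *Spi1*, *Cebpb* and *Itgam*, by distance of the summit from the TSS in kb, with fold enrichment upward for WT (blue) and downward for dKO (red), open circles for peaks found in both lists, filled circles for peaks in 1 list, triangles for promoters of other genes and a grey bar for the gene body. The 3 dKO-only *Spi1* peaks lie upstream of the TSS, and all 5 *Itgam* peaks are WT-only.

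*Cebpb*, which encodes a factor of macrophages and stress responses, had the most WT peaks of the 10 genes, at 9 (chromosome 2, gene 167514415 to 167515918). In dKO cells it had 7, against 8 at *Spi1*. Its 5 shared pairs lay at −31.9, −27.2, −8.79, +9.18 and +12.8 kb. Their relative ratios ran from 0.766 to 1.05, and each counting interval contained 1. The pair at −27.2 kb was the *Tmem189* promoter, and the strongest dKO peak, at +9.18 kb, had pileups of 70 in WT and 50 in dKO cells.

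The largest difference between the lists at *Cebpb* was a WT-only peak at −3.59 kb (167510784 to 167510897), in a *Tmem189* intron. It had 114 fragments, a fold enrichment of 13.7 and a percentile of 86.4, the highest of the gene in WT cells and the highest of the 15 peaks found in 1 list only. Scaled to the dKO pool it corresponds to 77.6 fragments, more than 85.9% of the dKO peaks had, yet the nearest dKO peak was 4999 bp away. With the WT list cut into 10 equal parts likewise, 5.38% of the peaks in its part had no dKO counterpart. The peak was narrow, at 114 bp. Among the 812 WT peaks narrower than 150 bp at percentile 80 or above, 13.5% had no dKO counterpart. Its sequence holds CAGCTG at 2 places and the CTCF letters at the summit, and no close copy of it was found elsewhere in the genome.

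The other single-list peaks of *Cebpb* were weak. In WT cells they lay at −10.6 kb with 28 fragments, in the exon as described above, and at +24.1 kb with 21 fragments. In dKO cells they lay at +24.6 kb with 15 fragments and at +35.0 kb with 20 fragments. The WT peak at +24.1 kb and the dKO peak at +24.6 kb were 297 bp apart and did not overlap. Of these 5, only those at +24.1 kb and +35.0 kb met the criteria, with fold enrichments of 4.08 and 4.97.

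*Tal1*, a master regulator of stem cells and erythroid cells that is off in normal mature T cells, had 3 peaks in each list, and all were shared (chromosome 4, gene 114729031 to 114744360). None lay at the promoter or in the gene. The strongest, at +29.3 kb, had pileups of 94 and 51, percentiles of 91.2 and 80.5 and a ratio of 0.798 (0.556 to 1.13). The peak at +45.4 kb had pileups of 26 and 20 and a ratio of 1.13 (0.599 to 2.11). So accessibility downstream of *Tal1* was present in both genotypes at levels that counting error does not separate. Both of these peaks had the CTCF letters near the summit, which 15.9% of all WT peaks had.

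*Gata1*, the lead factor of erythroid cells, and *Csf1r*, the receptor of macrophage growth factor, had no peak other than a neighbour's promoter. At *Gata1* that was the *Hdac6* promoter at +19.9 kb, with pileups of 60 and 33 and a ratio of 0.809 (0.512 to 1.26). At *Csf1r* it was the *Hmgxb3* promoter at +71.5 kb, with pileups of 92 and 57 and a ratio of 0.911 (0.643 to 1.28). *Kit*, the stem cell factor receptor, had 1 WT-only peak, 5.82 kb beyond the end of the gene, with 23 fragments, a fold enrichment of 4.19 and a percentile of 10.7. No peak of either list lay inside *Gata1*, *Csf1r* or *Kit*.

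*Itgam* showed the opposite pattern to *Spi1*, with 5 WT peaks and no dKO peak (chromosome 7, gene 135206154 to 135271674). CD11b, its product, is the integrin of monocytes, granulocytes and NK cells, and effector CD8+ T cells also acquire it. One peak spanned the TSS (135206059 to 135206252), with 36 fragments, a fold enrichment of 6.88 and a percentile of 40.3. The strongest lay at +57.6 kb (135263734 to 135263871), with 52 fragments, a fold enrichment of 9.85 and a percentile of 65.2. This peak falls in intron 29 of the longest transcript, past the end of several shorter ones, and 9269 bp upstream of the TSS of *Itgax*, the adjacent CD11c gene.

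The other 3 *Itgam* peaks were weaker. They had 26 fragments in intron 14 (+42.8 kb, fold enrichment 5.02), 21 at −20.1 kb (4.09) and 19 in intron 6 (+17.5 kb, 3.72). The last failed the criteria, and the peak at −20.1 kb has a copy elsewhere in the genome with 96.5% identity. The 5 peaks lay between 48551 and 117499 bp from the nearest dKO peak.

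Scaled to the shallower dKO pool, the +57.6 kb peak corresponds to 35.4 fragments, more than 38.6% of the dKO peaks had. For the promoter peak the same share was 16.2%, and for the other 3 it was 3.25% or less. Of the WT peaks in the same parts of the list, 16.5% for +57.6 kb and 31.3% for the promoter had no dKO counterpart, and for the weaker 3 this was 49.4% or 69.0%. Of 8063 protein-coding genes with 5 or more WT peaks in the window, 10 (0.124%) had no dKO peak there, and these were *Itgam*, 7 genes of the *Hoxb* cluster with largely shared windows, *Pls3* and *Syk* (named *Sykb* in the annotation). This count was chosen after the values at *Itgam* had been seen.

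Of the *Itgam* peaks, 4 of 5 held TGTGGT within 100 bp of the summit, as the +57.6 kb stretch printed above shows, while at the promoter the letters lie past the printed stretch. The GAGGAAG printed at the promoter lies outside the 100 bp, and the match counted below lies past the stretch as well. The peak in intron 6 was the only one of the 25 WT peaks with ATCAAAG, the Tcf/Lef letters, which 3.88% of all WT peaks had. No dKO peak of the 10 genes had them. Over all members, TGTGGT was found at 9 of 25 WT peaks (36%) and 5 of 20 dKO peaks (25%), against 21.9% and 23.2% of all peaks. AGATAA, the letters that GATA factors bind, was found at none, against 6.2% and 6.81% of all peaks. TTGCNCA, the C/EBP letters, was found at 2 WT peaks, both at *Cebpb*, and at no dKO peak, against 9.81% and 9.88% of all peaks. CAGCTG was found at 6 WT and 3 dKO peaks (12.6% and 12.2% of all peaks). The CTCF letters were found at 6 and 6 (15.9% and 16.0% of all peaks). GAGGAAG was found at 2 WT and 2 dKO peaks, against 3748 of all 31116 WT and 3022 of all 25525 dKO peaks (11.8%). These shares rest on few peaks and were not tested.

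Promoters of other genes of these lineages also mostly lacked a peak. Of 25 other myeloid genes, 2 had a promoter peak in WT cells and 2 in dKO cells, and they were *Irf8* and *Klf4* in both. The neutrophil and macrophage genes *Mpo*, *Elane*, *S100a8*, *S100a9*, *Cd14*, *Cd68*, *Itgax* and *Cybb* had none in either list. Of 22 other progenitor and erythroid genes, 3 had a promoter peak in WT and 2 in dKO cells. *Runx1* and *Zfpm1* were in both, and *Epor*, the erythropoietin receptor, only in the WT list, with 19 fragments and a fold enrichment of 3.72, below the criteria. The shares were 8% of other myeloid genes in both lists, and 13.6% and 9.09% of other progenitor and erythroid genes.

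**Figure D4:**
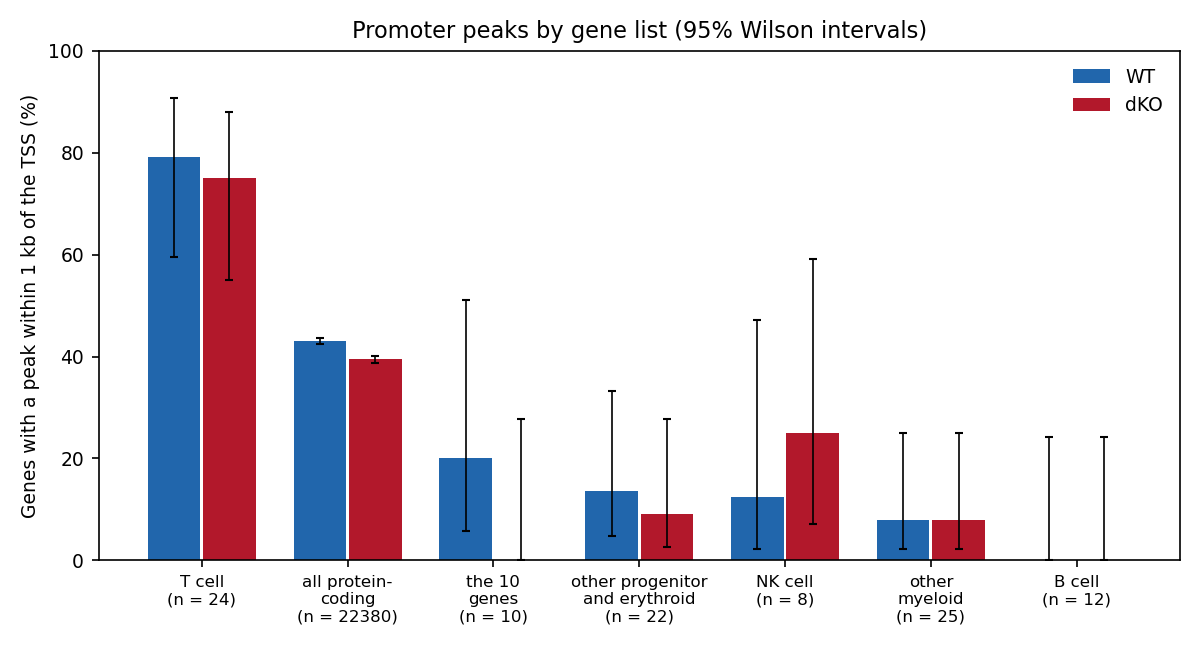
Share of genes in each list with a peak summit within 1 kb of the TSS, in %, for WT (blue) and dKO (red), with 95% Wilson intervals and the number of genes under each label. T cell genes stand at 79.2% and 75.0%, all protein-coding genes at 43.1% and 39.5%, and the 10 genes examined at 20% and 0%.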

How the data were processed

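DNase-seq of naïve CD8+ T cells was analysed from 2 deposited peak lists, WT (3 replicates pooled) and dKO (2 replicates pooled). The authors aligned reads to mm9 with Bowtie2, kept those with a mapping quality above 10, pooled the replicates, and called peaks with MACS2 2.1.1 in paired-end mode, without a control, at p under 1e-05. The deposited pileup is a signal, the unscaled number of fragments over the summit. The deposited fold enrichment is a ratio to the background near the peak, and the deposited −log10 p and −log10 q are the authors' MACS2 values. The file headers state that q would not be calculated, yet the column holds positive values, so results that rest on q carry that doubt. The file headers name each pool's reads in 2 forms, and the fragments kept after duplicate removal (83923734 for WT and 62242963 for dKO) are among 167847468 and 124485926 listed. It looks as if each pool was read in both forms, so these numbers do not measure the duplicates in the libraries. The study's criteria are p under 1e-05, q under 0.05 and a minimum fold enrichment of 4.

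The 10 genes and all gene lists were chosen with earlier results of these data known. Named peaks were, by rule, those within 1 kb of the own TSS, those in the gene body, the strongest of each gene in each list, and those in 1 list only. Promoters of neighbouring genes were named by that gene. Some other shared peaks are given outside this rule, such as *Tal1* +45.4 kb and *Spi1* −53.3 and −17.6 kb. The last 2 were picked as the lowest and highest ratios. An overlap of 1 bp or more made peaks shared, and a WT peak was paired with the overlapping dKO peak of highest pileup. Positions came from the gencode annotation of mm9, with the TSS of the transcript numbered 001 or else the longest. Of 103 list genes, 101 matched a protein-coding gene, and *Cebpd* and *Gfi1* did not. Ratio intervals are conditional binomial (Clopper-Pearson). Motifs were searched on both strands within 100 bp of summits, and copies with blastn 2.17.0. Python 3.11.15, pandas 2.3.3, scipy 1.17.1, pysam 0.24.0, samtools 1.23.1 and matplotlib 3.10.9 were used. The overlap and counting steps were tested on simulated data. One shared *Tal1* peak is counted but its own values are not reported here. Alternatives covered thresholds, overlap, window, promoter distance and scaling.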

Additional observations from a re-analysis of the deposited data

How the results depend on the processing

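No paired analysis was possible from these lists because the authors pooled replicates before peak calling, and for the same reason no replicate could be left out. The lists as deposited gave 25 WT peaks, 10 of them WT-only (40%), 20 dKO peaks, 5 of them dKO-only (25%), and 2 genes with a WT and 0 with a dKO peak at their promoter. A fold enrichment of at least 8 left 13 WT peaks with 3 WT-only (23.1%), 10 dKO peaks with 0 dKO-only (0%), and 0 genes with a WT promoter peak. The 20000 peaks of highest −log10 p left 14 with 3 (21.4%), 12 with 1 (8.33%), and 0 genes. With q under 1e-10 there were 4 WT-only peaks, 13 dKO peaks with 0 dKO-only (0%), and 1 gene with a WT promoter peak. The study's criteria left 3 dKO-only peaks and 1 gene with a WT promoter peak. These settings hold fewer peaks by construction, and the single-list peaks are mostly weak. Over the whole lists, the single-list shares at a fold enrichment of at least 8 were 25.9% in WT and 14.6% in dKO. For the 20000 peaks of highest −log10 p they were 19.7% and 18.9%, and under the study's criteria 27.6% and 14.4%. With q under 1e-10, 7899 of 26322 WT and 2286 of 20851 dKO peaks were in 1 list only. Differences between the 10 genes and these whole-list shares were not tested. In the gene bodies alone, 5 of 6 WT peaks (83.3%) and 1 of 2 dKO peaks (50%) were in 1 list. A window of 100 kb gave 61 WT peaks with 20 WT-only and 51 dKO peaks with 9 dKO-only, and one of 20 kb gave 11 dKO peaks with 2 dKO-only. Gene bodies and windows leave the lists unchanged, with 30.1% of all WT and 14.0% of all dKO peaks in 1 list. Of settings chosen after seeing the data, peaks of at least 150 bp gave 13 WT peaks with 2 WT-only (15.4%) and 12 dKO peaks with 1 dKO-only (8.33%). The single-list share among all peaks of at least 150 bp is not given here. Any annotated transcript start in place of 1 TSS, also chosen after seeing the data, gave 1 gene with a dKO promoter peak (*Spi1*, the −13.1 kb peak). *Itgam* had 0 dKO peaks under every threshold on the lists and at 20 kb, with 1 to 4 WT peaks, and at 100 kb it had 10 WT and 3 dKO peaks. None of the 15 shared pairs passed 2-fold under any scaling, against 1.42% to 2.96% of all pairs. None passed 1.5-fold in the main scaling, against 13.8% of all pairs. In all, 54 of the 94 values recomputed under 18 alternatives stayed within their limits. Depth limits the absence of a peak, which is not evidence of closed chromatin. The weakest pileup called was 16 fragments in WT and 13 in dKO, and this is not a detection limit that holds at every site.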

Other observations

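Among the other myeloid genes, the promoter of *Irf8*, a transcription factor of monocytes and dendritic cells, had a pileup of 84 in WT and 28 in dKO cells, with percentiles of 85.4 and 36.1. Its relative ratio of dKO to WT was 0.49 (95% counting interval 0.307 to 0.76), below the lowest of the 15 pairs at the 10 genes, and 0.856% of all pairs were at least 2-fold lower in dKO cells. The *Klf4* promoter had pileups of 48 and 36 and a ratio of 1.1 (0.695 to 1.73). Among the progenitor genes, the *Runx1* promoter had pileups of 83 and 79 and a ratio of 1.4 (1.02 to 1.93). *Zfpm1*, whose product is a partner of GATA factors, had a pair of promoter peaks with ratios of 0.829 (0.56 to 1.22) and 0.639 (0.429 to 0.936). These pairs were singled out after their values had been seen, and no replicate spread stands behind their intervals.

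*Lyz2*, which had no peak within 50 kb, had 8 peaks in each list within 100 kb. *Cebpa* and *Gata2* had 1 in each list at that distance.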
